A study of Mus musculus with 15 samples.

Results

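Healed skin of 10 mm wounds that received printed beads laden with mesenchymal stem cells (MSCs) was compared with healed skin of 10 mm wounds that received beads without cells. The samples were chosen by their labels alone, 3 high-density bead (HDB) samples and 3 acellular bead samples, which makes 6 of the 15 samples of the series. The question was which genes of the healed skin differ when the beads carried MSCs. All animals were wild type, and the study's methods describe male balb/c mice of 4 to 6 weeks with a full-thickness excision on the back. The HDB wounds received 56 cell-laden Matrigel beads among empty beads, with 84000 MSCs in all, and the acellular wounds received Matrigel beads only, so both groups carry the wound, the gel and the implantation. The MSCs came from human umbilical cord, whereas the table lists mouse genes, and the share of human reads was not measured here. By the methods, skin for RNA was collected 4 weeks after the beads were implanted, although they also say that the wound experiment ended at day 21, when tissue was taken. Which time applies to these samples is not settled by the sources used here. Nothing in the labels or methods says whether the 3 replicates of a group came from separate animals, so p-values measure the spread between these samples.

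As background, a full-thickness wound closes by re-epithelialisation, by formation of new dermis from fibroblasts that secrete collagens, and by ingrowth of vessels. Hair follicles are mostly lost in a scar, although large wounds of mice can form new ones. Immediate-early genes such as Fos, Jun and Egr1 encode transcription factors that are switched on within minutes by growth factors, stretch, injury or tissue handling, and their transcripts are short-lived. Per1 belongs to the circadian clock and also answers quickly to cyclic AMP signalling and glucocorticoids.

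Each sample held between 16652756 and 18074237 counts in the 10 mm groups, so depth hardly differed, and levels are given as CPM, the count scaled to a common library total after TMM normalization. Of 18929 genes, 15369 passed the filter on low counts. In edgeR's quasi-likelihood fit, 0 genes (0%) passed an adjusted p of 0.05, and the smallest adjusted p was 0.0836, for Per1. At an unadjusted p under 0.05 there were 543 genes (3.53%), 323 of them higher in HDB (2.10%) and 220 lower (1.43%). That count went down to 209 without acellular replicate 1 and to 210 without HDB replicate 3, and up to 818 without acellular replicate 2 and 952 without HDB replicate 2. Samples of both groups did not overlap for 696 genes that were higher (4.53%) and 994 genes that were lower (6.47%) in HDB. DESeq2, the tool named in the study's methods, called 17 of 15337 genes (0.111%), 13 lower (0.0848%) and 4 higher (0.0261%). That balance depended on the samples fitted, since DESeq2 called 64 higher and 33 lower genes with only the 10 mm samples, 29 higher and 15 lower without acellular replicate 2, and 19 higher and 9 lower without HDB replicate 1. Over all genes 7414 (48.2%) had a log2 fold change above 0 and 7955 (51.8%) below 0, with a median of -0.0083. A log2 fold change is HDB minus acellular throughout, and a single gene is "higher" or "lower" by its values where no test is named.

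Libraries differed within each group. Acellular replicate 1 carried the highest hair keratin and clock output transcripts of the 10 mm samples, HDB replicate 2 the highest neutrophil and the lowest muscle transcripts of the 6, and HDB replicate 3 the highest interferon-response transcripts of the 6. Krt5, the basal keratinocyte keratin that marks skin, stood at 7963, 5557 and 5274 CPM in acellular replicates 1 to 3 and at 4630, 6136 and 3875 CPM in HDB replicates 1 to 3, so all 6 were rich in epidermis. In bulk tissue, fewer cells of a type and less RNA per cell cannot be told apart, which holds for every list below.

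Immediate-early genes were lower with MSC beads. Of 31 genes listed for immediate-early and stress response, 30 had a log2 fold change below 0, and the list median was -0.54. Without overlap between the groups 16 members were lower, and the same number reached an unadjusted p under 0.05 in edgeR, all lower, against a background of 6.47% and 1.43% of all genes. All lists here were chosen with earlier results of these data known, so such shares describe the lists and are not a test. DESeq2 called 10 of the 31, all lower, and with Per1 these made 11 of its 17 genes.

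Many immediate-early genes carry cyclic AMP response elements before their start sites, so these windows were searched, and those of the 6 genes that held the core site are shown. RefSeq promoters of build GRCm38.p6 matched 9 of the 11 genes, at 10 start sites, and Ier2 and Egr1 were not matched. The match to these genes left out 1 chromosome, so a missing match does not show that no entry exists. The 250 bases before each start were searched on both strands for the core site TGACG (on the opposite strand it reads CGTCA along the gene), for the full element TGACGTCA, which contains the core site on both strands, and for the E-box CACGTG, which clock proteins bind. A core site lay before 7 of the 10 starts and 6 of the 9 genes, and 17.8% of all 32851 promoters held one. The full element lay before 1 start (Dusp1; 1.55% of all) and an E-box before 3 (6.02% of all). The core site was absent, on either strand, from these windows of Jund, Jun and Zfp36. A match describes letters and not binding. Members of the immediate-early and clock lists that were not called were not searched. The shares above therefore describe this kind of gene and not an effect of the beads. The runs below read 5′ to 3′ along the gene's strand and end at the base before the start, with the matches in capitals.
Per1, upstream start (chr11:69098699-69098948, plus strand): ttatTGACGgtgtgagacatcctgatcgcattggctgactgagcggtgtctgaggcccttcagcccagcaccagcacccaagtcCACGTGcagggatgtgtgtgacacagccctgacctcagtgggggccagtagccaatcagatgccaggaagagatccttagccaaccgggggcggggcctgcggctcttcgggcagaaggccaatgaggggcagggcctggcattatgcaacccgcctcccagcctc
Per1, downstream start (chr11:69099902-69100151, plus strand): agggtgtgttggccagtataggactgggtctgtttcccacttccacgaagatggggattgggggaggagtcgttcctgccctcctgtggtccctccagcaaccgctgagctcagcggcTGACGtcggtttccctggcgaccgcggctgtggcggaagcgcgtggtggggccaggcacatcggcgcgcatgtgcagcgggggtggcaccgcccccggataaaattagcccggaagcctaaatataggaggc
Fos (chr12:85473640-85473889, plus strand): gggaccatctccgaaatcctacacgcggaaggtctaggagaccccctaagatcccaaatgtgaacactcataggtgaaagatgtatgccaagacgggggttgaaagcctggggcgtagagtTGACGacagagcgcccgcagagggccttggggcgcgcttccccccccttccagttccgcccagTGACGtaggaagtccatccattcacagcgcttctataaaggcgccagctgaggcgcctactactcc
Fosb (chr7:19310046-19310295, minus strand): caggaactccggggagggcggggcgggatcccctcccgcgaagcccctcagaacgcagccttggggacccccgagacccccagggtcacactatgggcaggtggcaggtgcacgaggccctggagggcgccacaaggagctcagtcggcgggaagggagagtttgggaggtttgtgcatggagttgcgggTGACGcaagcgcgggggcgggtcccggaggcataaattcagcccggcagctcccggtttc
Junb (chr8:84978749-84978998, minus strand): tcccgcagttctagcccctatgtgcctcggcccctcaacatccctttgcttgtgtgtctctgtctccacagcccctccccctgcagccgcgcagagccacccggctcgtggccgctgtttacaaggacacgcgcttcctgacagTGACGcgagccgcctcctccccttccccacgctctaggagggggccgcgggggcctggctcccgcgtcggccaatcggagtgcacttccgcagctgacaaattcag
Klf4 (chr4:55532476-55532725, minus strand): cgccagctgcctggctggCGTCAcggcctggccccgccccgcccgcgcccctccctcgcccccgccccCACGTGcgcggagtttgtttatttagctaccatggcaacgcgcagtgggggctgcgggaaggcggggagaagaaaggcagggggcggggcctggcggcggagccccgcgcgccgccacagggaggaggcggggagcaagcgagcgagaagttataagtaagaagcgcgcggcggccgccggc
Dusp1 (chr17:26508473-26508722, minus strand): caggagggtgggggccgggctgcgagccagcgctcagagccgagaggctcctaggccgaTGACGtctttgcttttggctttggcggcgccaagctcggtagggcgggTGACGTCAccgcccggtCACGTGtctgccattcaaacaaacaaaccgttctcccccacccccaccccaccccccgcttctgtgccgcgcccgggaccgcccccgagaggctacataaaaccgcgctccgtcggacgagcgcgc

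Fos (Entrez 14281), a subunit of the AP-1 transcription factor, stood at 248, 186 and 775 CPM in acellular replicates 1 to 3 and at 27.7, 33.2 and 24.7 CPM in HDB replicates 1 to 3. All HDB samples lay below all acellular ones, and acellular replicate 3 was the highest of the 6. The log2 fold change was -3.82 (SE 0.69), with an adjusted p of 0.626 in edgeR and 2.78e-05 in DESeq2 (5.41e-12 to 1 over all alternatives), and without acellular replicate 3 it was -2.93. Fosb, its paralog, showed the same order, with 31.6, 43.2 and 307 CPM against 2.78, 8.07 and 7.997 CPM and a log2 fold change of -4.34 (SE 0.91). Without acellular replicate 3 the fold change of Fosb was -2.57, and DESeq2 no longer called it (adjusted p 0.117; 1.02e-05 to 1 over all alternatives).

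The JUN partners differed by less, but their replicates lay closer together. Junb had 232, 203 and 292 CPM without cells and 78.2, 134 and 100.1 CPM with cells. Jun had 208, 149 and 258 CPM against 119, 104 and 118 CPM. Jund, the member that is expressed most steadily in resting tissue, had 146, 139 and 125 CPM against 97.8, 87.7 and 94.6 CPM. The groups did not overlap for any of these 3, with log2 fold changes of -1.22 (SE 0.27), -0.85 (SE 0.20) and -0.55 (SE 0.11).

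Feedback genes of the same response were lower too. Dusp1, a phosphatase that switches off MAP kinases, had 208, 215 and 336 CPM in acellular and 67.5, 64.3 and 72.5 CPM in HDB samples, a log2 fold change of -1.89 (SE 0.42). Zfp36, which destabilises AU-rich messenger RNAs, had 109.9, 114 and 205 CPM against 52.7, 72.8 and 63.9 CPM (log2 fold change -1.18, SE 0.26). Here again the 3 HDB samples lay below the 3 acellular ones. The zinc-finger factors Klf4 and Egr1 and the nuclear protein Ier2 had log2 fold changes of -0.83 (SE 0.15), -1.58 (SE 0.39) and -1.22 (SE 0.27). For Klf4, which drives barrier formation in epidermis, the levels were 240.3, 235 and 302 CPM against 126, 158 and 153 CPM. The DESeq2 adjusted p of the 10 called members lay between 2.78e-05 and 0.0402, and over all alternatives it ranged from 4.95e-14 to 1, since edgeR called no gene in any of its 13 alternatives.

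How far these calls hang on single samples was seen by leaving out each in turn. Fos and Per1 were called in all 8 DESeq2 fits, Fosb and Klf4 in 7, Jund, Egr1 and Ier2 in 5, Dusp1, Junb and Zfp36 in 4 and Jun in 3. Without acellular replicate 3, whose Fos, Fosb and Egr1 levels were the highest, DESeq2 called 6 genes, 2 of them in the immediate-early list, and 27 of the 31 members were below 0 in edgeR. Without HDB replicate 3 it called 5 genes, 3 of them in the list, and without HDB replicate 2 it called 13, with 6 in the list. It called 11 without acellular replicate 1 (9 in the list), 44 without acellular replicate 2 (10 in the list) and 28 without HDB replicate 1 (4 in the list). Heat-shock chaperones, another class of stress gene, had 13 of 14 members below 0 and a list median of -0.18. Lower without overlap was 1 of the 14, near the 6.47% of all genes, and without acellular replicate 1 the list had 7 members above 0 and 7 below, with a median of 0.0032. One heat-shock gene with a large gap, Hspa1a, was high in acellular replicate 1 alone (407, 119 and 113 CPM against 111, 118 and 97.2 CPM), whereas Fos, Fosb, Egr1 and most other immediate-early genes named here were highest in acellular replicate 3.

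In 15 mm wounds of the same series, the immediate-early list had a median of 0.10, with 13 of its 31 members below 0. Fos stood at 13.6, 61.4 and 53.7 CPM in the 15 mm acellular samples and at 58.5, 28.7 and 105 CPM in the 15 mm HDB samples, and its log2 fold change there was 0.58. The difference between the effects at 10 mm and 15 mm was -4.40 for Fos, with an unadjusted p of 3.90e-04 in edgeR's interaction test. That p was 9.88e-05 for Jund, 3.84e-04 for Dusp1, 9.57e-04 for Klf4 and 3.74e-05 for Per1. Over all genes the interaction passed an adjusted p of 0.05 for 0 genes (0%) and an unadjusted p of 0.05 for 2063 (13.4%), with a smallest adjusted p of 0.118, and DESeq2 called 852 genes. Of the 31 listed members, 16 reached an unadjusted p under 0.05 in that interaction. Normal skin had 24.3, 21.2 and 12.01 CPM of Fos, below all 3 of the 10 mm HDB samples, and 94.3, 86.1 and 54.7 CPM of Egr1, below all of them. The list as a whole did not follow these 2 genes. Its median log2 fold change against normal skin was -0.0073 in HDB and 0.81 in acellular 10 mm wounds. In HDB wounds edgeR called 2 members higher and 5 lower than normal skin.

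**Figure D1:**
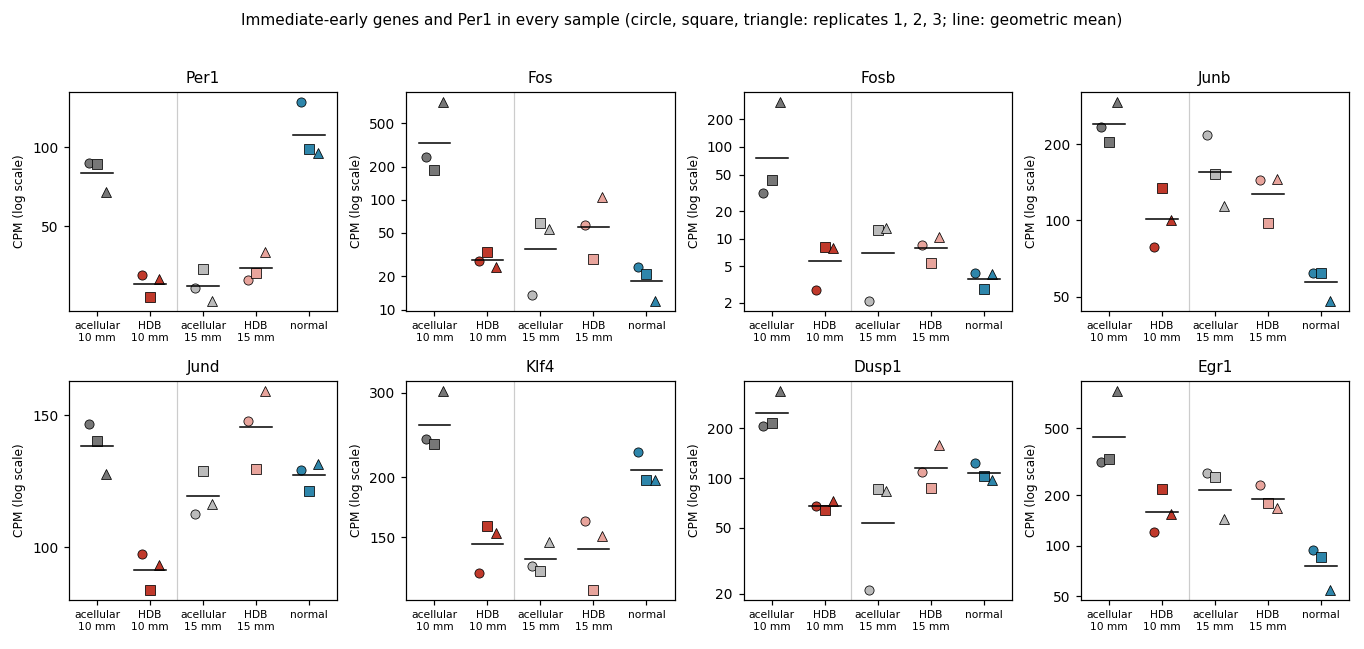
Levels of Per1 and 7 immediate-early genes in CPM on log axes, for each of the 15 samples, with acellular and HDB samples of 10 mm and 15 mm wounds and normal skin along the horizontal axis. In each panel the 3 HDB 10 mm samples (red) lie below the 3 acellular 10 mm samples (dark grey), and acellular replicate 3 (triangle) is the highest for Fos, Fosb, Junb, Klf4, Dusp1 and Egr1.

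Per1 (Entrez 18626), a repressor of the circadian clock, was the gene with the smallest p in the main edgeR fit, though not in every alternative. Its levels were 87.05, 86.3 and 67.5 CPM in acellular replicates 1 to 3 and 32.5, 26.8 and 31.5 CPM in HDB replicates 1 to 3, with narrow spread in both groups. The fold was 2.65 times lower in HDB, a log2 fold change of -1.41 (SE 0.19), with an adjusted p of 0.0836 in edgeR and 3.97e-09 in DESeq2 (1.98e-12 to 0.952 over all alternatives). The 15 mm groups lay near the HDB level, at 29.1, 34.4 and 25.97 CPM without and 31.3, 33.04 and 39.7 CPM with cells. Normal skin was higher again, at 148, 98.4 and 95.2 CPM.

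Other clock genes were less uniform than Per1. Of 19 clock genes 14 had a log2 fold change below 0, 3 reached an unadjusted p under 0.05 as lower (1.43% of all genes) and 3 were lower without overlap (6.47% of all genes). Without acellular replicate 1 the clock list had 11 members above 0 and 8 below, and its median went from -0.50 to 0.066. Per2, its paralog, had 57.8, 3.43 and 5.85 CPM in acellular and 6.04, 2.31 and 6.997 CPM in HDB samples. Dbp, a clock output factor, had 83.00, 9.55 and 10.2 CPM against 12.2, 10.3 and 12.1 CPM, and Tef, of the same family, 309, 95.97 and 102 CPM against 149, 73.2 and 106 CPM. In these 3 genes acellular replicate 1 stood far above the other 5 samples, near normal skin (Dbp 124, 139.9 and 90.1 CPM). Arntl, a clock activator, was lowest in that same sample (24.6, 52.7 and 56.6 CPM against 50.7, 47.4 and 40.3 CPM). Without acellular replicate 1 the log2 fold change of Per2 turned from -2.13 to 0.14 and that of Dbp from -1.57 to 0.23, whereas Per1 kept -1.34. The time of day at which skin was taken is not given in the sources used here, and its part in these values was not tested. Wee1, a cell-cycle kinase gene that the clock controls in other tissues, was lower in HDB without overlap, at 53.5, 53.6 and 46.7 CPM against 23.8, 30.8 and 24.9 CPM.

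Genes of the dermal matrix were higher with MSC beads. All 13 fibrillar and fibril-associated collagens had a log2 fold change above 0, against 48.2% of all genes, and the list median was 1.19. The groups did not overlap for 9 of them (4.53% of all genes were higher so), and 7 reached an unadjusted p under 0.05 (2.10% of all genes were higher so). None passed the adjusted p of either tool in the fit of all 15 samples. In a DESeq2 fit of only the 6 samples, added after the data were seen, 97 genes were called, among them Col1a1, Col3a1, Col5a1, Col5a2, Col6a1, Col6a2 and Col6a3.

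Col3a1, the collagen of young granulation tissue, had 1155, 1858 and 1288 CPM in acellular replicates 1 to 3 and 3324, 3717 and 4409 CPM in HDB replicates 1 to 3. Col1a1, the main collagen of dermis and scar, had 766, 1125 and 794 CPM against 1936, 2294 and 2529 CPM. Both were higher in all 3 HDB samples, 2.66-fold and 2.52-fold. Col5a2, which sets the diameter of collagen fibrils, had 138, 206 and 142 CPM against 343, 344 and 425 CPM and a log2 fold change of 1.195 (SE 0.43), with an unadjusted p of 0.0153. The chains of collagen VI, a beaded filament around cells, were higher by like amounts, with log2 fold changes of 1.09 (SE 0.40) for Col6a1, 1.203 (SE 0.43) for Col6a2 and 1.10 (SE 0.42) for Col6a3. The collagen counts depended on single samples. Without acellular replicate 1, 1 of the 13 reached an unadjusted p under 0.05, and without HDB replicate 3 it was 2, with 209 and 210 of all genes in these fits, while all 13 were above 0.

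The enzymes that build collagen were higher as well. Of 19 genes for collagen processing and crosslinking 18 had a log2 fold change above 0 (median 0.73), 9 were higher without overlap (4.53% of all genes) and 6 reached an unadjusted p under 0.05 (2.10% of all genes). P3h1, which hydroxylates proline in procollagen, had 12.7, 17.7 and 15.6 CPM against 26.04, 23.1 and 28.7 CPM. Loxl2, which crosslinks collagen, had 28.8, 43.97 and 31.7 CPM against 67.5, 70.6 and 90.02 CPM, and Serpinh1, the collagen chaperone of the endoplasmic reticulum, 244, 196 and 210.1 CPM against 292, 348 and 405 CPM. In each of these 3 genes the lowest HDB sample exceeded the highest acellular one, and the log2 fold changes were 0.76 (SE 0.23), 1.13 (SE 0.39) and 0.69 (SE 0.26).

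Elastic fibre genes were above 0 in 14 of 17 (median 0.65) and proteoglycans in 10 of 11 (median 0.58; 0.489 to 0.936 over all alternatives). Efemp2, which is needed to assemble elastic fibres, had 8.90, 9.66 and 8.24 CPM against 13.1, 14.4 and 16.4 CPM (log2 fold change 0.71, SE 0.21). Bgn, a small proteoglycan that binds collagen, had 149, 219 and 129 CPM against 279, 312 and 345 CPM (log2 fold change 0.91, SE 0.29), and Lum, its relative, 59.1, 146 and 67.05 CPM against 149.6, 298 and 354 CPM (log2 fold change 1.56, SE 0.61). All 3 were without overlap. Sparc, a matricellular protein of remodelling tissue, had 781, 1002 and 787 CPM against 1547, 1627 and 1893 CPM. Matrix proteases and their inhibitors were above 0 in 19 of 22 members (median 0.46, from 0.303 to 1.07 over all alternatives), with 5 higher without overlap (4.53% of all genes), among them Mmp2, a gelatinase (159, 127 and 97.2 CPM against 239, 174 and 197 CPM). Fibroblast and stromal genes were above 0 in 18 of 21 (median 0.45, from 0.278 to 0.707 over all alternatives), such as Pdgfra, a fibroblast receptor, at 25.1, 41.1 and 37.4 CPM against 68.4, 44.2 and 65.98 CPM. Adam12, a protease of injury-activated stromal cells, had 21.1, 24.7 and 23.1 CPM against 54.99, 59.5 and 54.2 CPM, a 2.44-fold gap with little spread in either group. Adam12 stood at 7.40 ± 2.63 CPM (mean ± SD, n = 3) in normal skin.

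The matricellular genes did not all go the same way. Ccn1 and Ccn2, secreted proteins that are induced by stretch and growth factors, were lower in HDB, with 64.05, 132 and 149 CPM against 33.7, 43.5 and 50.9 CPM for Ccn1 and 112, 171 and 115 CPM against 54.99, 65.9 and 73.6 CPM for Ccn2. Neither overlapped, with log2 fold changes of -1.43 (SE 0.40) and -1.03 (SE 0.42). In 15 mm wounds their log2 fold changes were 0.81 and 0.83, and the interaction had unadjusted p of 0.00153 and 0.00798 in edgeR. Ccn4, of the same family, was higher in HDB at 3.65, 6.51 and 3.27 CPM against 6.21, 14.2 and 15.7 CPM, and its groups overlapped by a small margin.

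**Figure D2:**
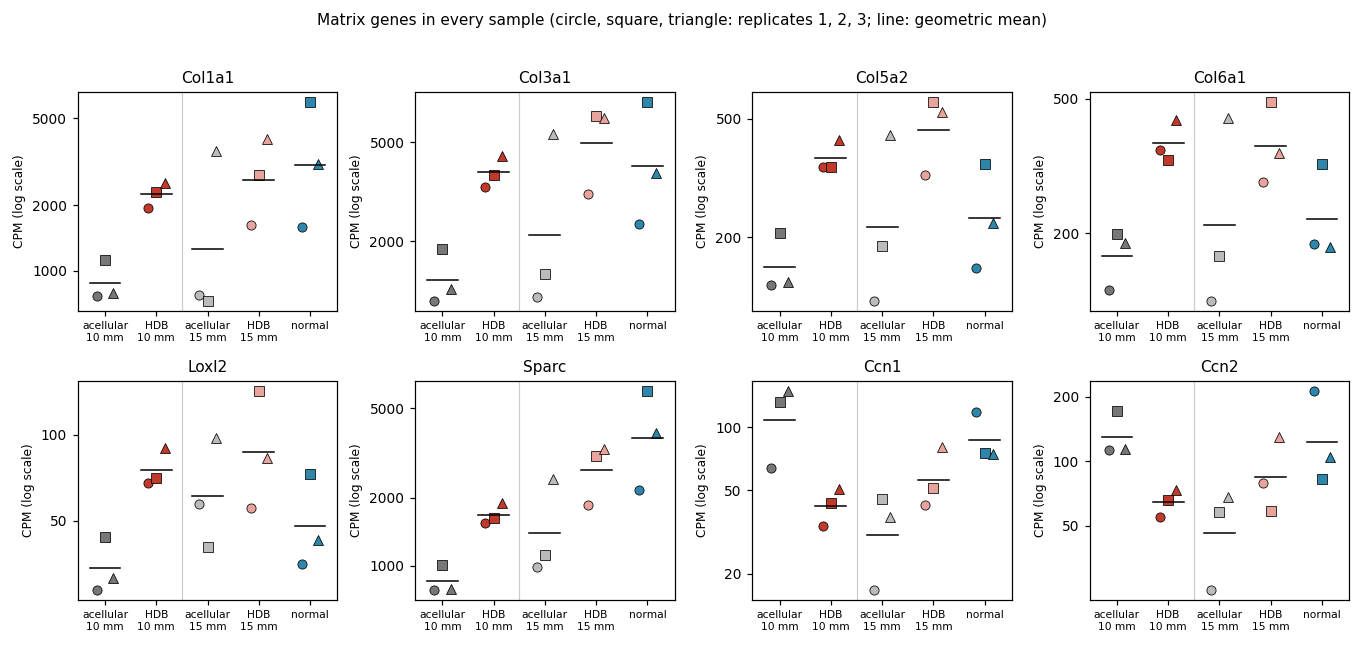
Levels of 8 matrix genes in CPM on log axes for each of the 15 samples, arranged as acellular and HDB samples of 10 mm and 15 mm wounds and normal skin. The 3 HDB 10 mm samples lie above the 3 acellular 10 mm samples for the 4 collagen genes, Loxl2 and Sparc, and below them for Ccn1 and Ccn2.

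At 15 mm the collagens had a list median of 0.61 and were above 0 in 12 of 13 members. No collagen reached an unadjusted p under 0.05 in the interaction of treatment and wound size. Col1a1 stood at 773, 729.9 and 3522 CPM in 15 mm acellular and 1631, 2735 and 4020 CPM in 15 mm HDB samples, where the groups overlapped. Normal skin had 1591, 5915 and 3071 CPM, a range that spans all 3 HDB 10 mm values.

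Markers of vessels were higher with MSC beads in every listed gene, by small margins. All 22 vascular endothelial genes had a log2 fold change above 0, with a median of 0.59, a lowest of 0.34 and a highest of 1.01. In this list 2 genes reached an unadjusted p under 0.05 (2.10% of all genes were higher so), and the same 2 alone were higher without overlap (4.53% of all genes). Flt4, the receptor for VEGF-C, had 3.60, 4.66 and 2.10 CPM against 5.80, 5.76 and 8.89 CPM, and Aplnr, the apelin receptor of sprouting vessels, had 9.02, 9.55 and 5.96 CPM against 23.1, 10.1 and 16.1 CPM. Pecam1, which encodes the vessel marker CD31 that the study stained, had 40.2, 70.8 and 30.2 CPM against 84.9, 49.3 and 87.02 CPM and a log2 fold change of 0.65, SE 0.38, with an unadjusted p of 0.116. Acellular replicate 2 was high and HDB replicate 2 was low among their groups, as in the summed list (503.2 CPM and 360.7 CPM), so the groups overlapped. Without acellular replicate 2, 14 of the 22 genes reached an unadjusted p under 0.05 and without HDB replicate 2 it was 11, while over all 15369 genes, in either direction, the count went from 543 to 818 and 952 in these fits. Without acellular replicate 3 or HDB replicate 3 it was 0 of the 22, with 617 and 210 of all genes. All 22 were above 0 in these fits except without acellular replicate 3, where 21 were, and the list median ran from 0.445 without acellular replicate 3 to 0.966 without acellular replicate 2. Angpt2, a vessel-destabilising ligand that endothelium secretes, was higher without overlap, at 2.91, 6.12 and 2.92 CPM against 7.10, 10.2 and 10.3 CPM. The 7 lymphatic genes were all above 0, with a median of 0.58 that was 0.381 without HDB replicate 3, 0.384 without acellular replicate 3 and 1.15 without acellular replicate 2. Among them was Prox1, the lymphatic master regulator, at 1.66, 2.58 and 2.05 CPM against 4.74, 3.39 and 6.33 CPM.

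Compared with normal skin, both groups were low in vessel transcripts. Pecam1 stood at 181, 189 and 198 CPM in normal skin. Against normal skin, all 22 vascular genes passed edgeR's adjusted p as lower in acellular wounds (10.6% of all genes passed so) and 13 in HDB wounds (6.23% of all genes). For comparison, 9.77% of all genes were called higher than normal skin in acellular wounds and 6.10% in HDB wounds, and of the 31 immediate-early genes 13 were so in acellular and 2 in HDB wounds. Called lower than normal skin were 1 of the 31 in acellular wounds (10.6% of all genes) and 5 in HDB wounds (6.23% of all genes). The comparisons share the normal samples.

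Adipocyte genes were above 0 in 14 of 14 members (median 0.97), with 4 higher without overlap (4.53% of all genes). Adipoq, the fat-cell hormone adiponectin, had 60.8, 70.8 and 31.3 CPM against 197, 90.2 and 180.2 CPM, and Lpl, the lipase of fat capillaries, 237, 363 and 303 CPM against 666, 417 and 677 CPM. HDB replicate 2 was the lowest of the HDB samples in both, and in Plin1, which coats lipid droplets, it lay among the acellular samples (10.6, 19.2 and 9.18 CPM against 70.7, 15.2 and 52.98 CPM). Normal skin held more of each, with 219.5, 703 and 330.2 CPM of Adipoq. In the adipocyte list 2 genes reached an unadjusted p under 0.05 (2.10% of all genes were higher so), and none did without acellular replicate 1, acellular replicate 3, HDB replicate 1 or HDB replicate 3.

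Skeletal muscle transcripts, from the thin muscle sheet under mouse skin, varied widely within both groups. Acta1, the muscle actin, had 1278, 3346 and 6876 CPM against 8737, 205 and 2007 CPM, so that HDB replicates 1 and 2 were the highest and the lowest of the 6. The muscle list summed to between 7181 and 39770 CPM in acellular and between 1238 and 52950 CPM in HDB samples, with a list median of -0.0286. The depth of the excised piece is not given for each sample, and its part in the fat, vessel and muscle values was not tested.

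**Figure D3:**
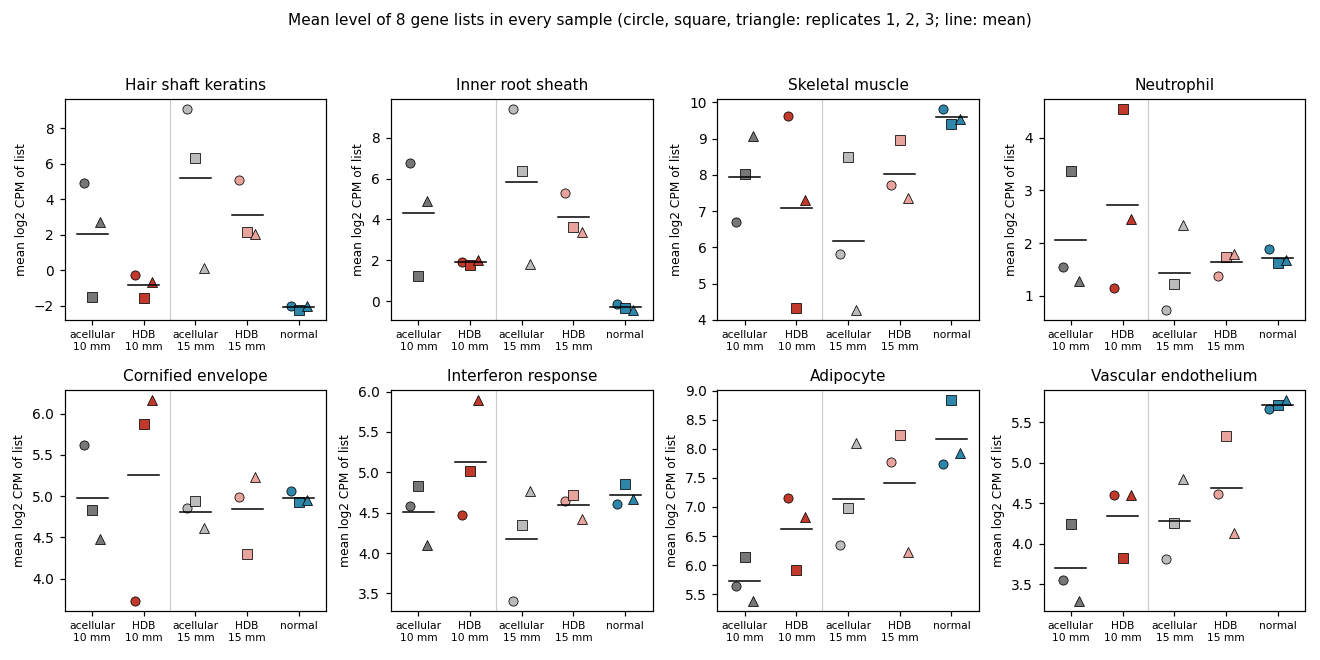
Mean log2 CPM of 8 gene lists in each of the 15 samples (prior count 2), with points for replicates and a line for the group mean. Among the 10 mm samples hair lists are highest in acellular replicates 1 and 3, HDB 10 mm replicate 2 is the lowest of the 10 mm samples in muscle and the highest in neutrophil genes, and vascular and adipocyte lists overlap between the 10 mm groups.

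Among leukocyte genes, mast cell genes had the highest list median, 1.14 (0.879 to 1.72 over all alternatives), with 9 of 10 above 0 and 3 higher without overlap (4.53% of all genes). Cpa3, the mast cell carboxypeptidase, had 3.14, 5.67 and 2.51 CPM against 6.99, 9.79 and 12.4 CPM, and Tpsb2, a tryptase, 2.34, 5.28 and 1.93 CPM against 7.46, 6.51 and 10.4 CPM. Both were higher in all 3 HDB samples, and normal skin had 20.7, 53.4 and 41.2 CPM of Cpa3. Macrophage genes were above 0 in 18 of 19 (median 0.41), but the groups overlapped for all except 1, which was lower (6.47% of all genes were so). Without acellular replicate 2 the macrophage median was 1.19, and over all alternatives it ran from 0.237 to 1.21. Cd68, the macrophage protein the study stained, had 8.90, 42.2 and 7.48 CPM against 17.1, 33.4 and 24.1 CPM, with acellular replicate 2 the highest of the 6 samples. T cell and cytotoxic genes were above 0 in 17 of 18 (median 0.42), with 4 higher without overlap (4.53% of all genes). That median was 0.0639 without HDB replicate 3, 0.222 without acellular replicate 3 and 0.764 without acellular replicate 2. Cd3e, a chain of the T cell receptor complex, had 3.996, 2.75 and 2.57 CPM against 3.20, 3.07 and 4.39 CPM and a log2 fold change of 0.19 (SE 0.63). Complement genes were above 0 in 15 of 15 (median 0.72). Higher without overlap was 1 of the 15, near the 4.53% of all genes, and none reached an unadjusted p under 0.05. C3, the hub of the cascade, had 55.9, 95.3 and 63.5 CPM against 149, 71.1 and 135 CPM.

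Interferon-response genes were above 0 in 23 of 26 members (median 0.81), and 7 reached an unadjusted p under 0.05, all higher (2.10% of all genes). Ifit2, which blocks translation of viral RNA, was called by DESeq2 (adjusted p 0.0499; 0.00211 to 1 over all alternatives) at 6.05, 8.31 and 6.90 CPM against 10.1, 12.5 and 21.1 CPM. Its neighbour Ifit3 had 5.31, 5.11 and 3.68 CPM against 7.34, 10.9 and 16.3 CPM. For both genes the groups did not overlap, and HDB replicate 3 was the highest. The same sample was the highest for Irf7, the master regulator of the response (18.9, 20.2 and 10.3 CPM against 14.6, 25.4 and 47.8 CPM), where the groups overlapped. Without HDB replicate 3 the list median went from 0.81 to 0.17 and 2 members reached an unadjusted p under 0.05.

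The study names 5 secretome-related genes, and all 5 were above 0 (median 0.43; -0.23 to 1.03 over all alternatives) with overlap in 4. Vcam1, an adhesion receptor for leukocytes, was the 1 that was higher without overlap (4.53% of all genes), at 6.11, 11.8 and 7.60 CPM against 12.5, 13.1 and 20.5 CPM (log2 fold change 0.85, SE 0.43; unadjusted p 0.0677). Cxcl10 had 8.39, 9.71 and 5.09 CPM against 4.44, 13.2 and 23.1 CPM and Cxcl9 had 49.5, 67.6 and 24.1 CPM against 25.4, 55.04 and 109.9 CPM, both chemokines that interferon induces. Ccl5, a T cell chemokine, had 2.34, 5.95 and 2.28 CPM against 2.72, 3.07 and 8.28 CPM, and Il12b, a subunit of interleukins 12 and 23, 2.68, 5.56 and 2.05 CPM against 1.95, 2.37 and 9.27 CPM. In these last 4 genes HDB replicate 3 was the highest of the 6 samples. Without it, the log2 fold change turned from 0.43 to -0.23 for Cxcl9, from 0.41 to -0.28 for Ccl5 and from 0.40 to -0.66 for Il12b. The exact two-sided permutation test over the 6 samples cannot give a p below 0.1, which was reached for Vcam1, and gave 0.9 for Il12b.

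Inflammatory transcripts pointed to a single library. Il1b, the pyrogenic cytokine, had 3.88, 23.7 and 7.19 CPM against 4.56, 219 and 17.9 CPM, and S100a8, a neutrophil protein, 1.94, 7.08 and 2.05 CPM against 1.01, 72.5 and 2.999 CPM. In both genes HDB replicate 2 was far above the other 5 samples. The 7 neutrophil genes tested summed to between 26.7 and 89.6 CPM in acellular samples and between 22.1 and 270.1 CPM in HDB samples, and 2 reached an unadjusted p under 0.05 as higher (2.10% of all genes). Their median of 0.79 ran from -0.53 to 2.00 over all alternatives. Without HDB replicate 2 the log2 fold change of S100a8 went from 2.79 to -0.86 and that of Il1b from 2.79 to -0.0247. Tslp, an epithelial cytokine, was lower in HDB at 1.60, 1.80 and 2.51 CPM against 1.42, 1.40 and 0.889 CPM, without overlap. At 15 mm its log2 fold change was 1.81, and the interaction had an unadjusted p of 2.09e-04 in edgeR.

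Structural genes of growing hair were lower with MSC beads in value, and the gap rested on 2 of the 3 acellular samples. All 12 hair shaft keratin genes tested had a log2 fold change below 0 (median -5.35), of 13 listed, and so had all 11 inner root sheath genes (median -4.47). Krt33a, a keratin of the hair cortex, had 91.6, 0.281 and 13.8 CPM in acellular and 0.829, 0.108 and 1.05 CPM in HDB samples. Krt31, another cortex keratin, had 67.6, 0.393 and 15.1 CPM against 1.36, 0.269 and 0.666 CPM. Acellular replicates 1 and 3 were high, and acellular replicate 2 was as low as the HDB samples. Krt71, of the inner root sheath that moulds the shaft, had 169, 1.01 and 83.2 CPM against 4.79, 1.40 and 5.22 CPM, and Tchh, which hardens that sheath, 510.0, 9.55 and 59.3 CPM against 10.5, 16.6 and 13.2 CPM. The same 2 acellular samples were high again.

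In each hair list, of 12 shaft and 11 sheath genes, 1 was lower without overlap, near the 6.47% of all genes. An unadjusted p under 0.05 was reached by 6 and 7, all lower (1.43% of all genes). Without acellular replicate 1 none of either list did, with medians of -3.31 and -2.11, and without any single HDB sample 0 of the shaft genes did. Krt72, the sheath gene without overlap, had 112, 1.24 and 2.81 CPM against 0.473, 0.484 and 0.555 CPM. Normal skin had 0.141, 0.0670 and 0.0671 CPM of Krt71. The 15 mm wounds showed the same direction, with list medians of -4.77 and -3.95, and Krt71 at 2962, 203 and 3.88 CPM without and 73.1, 17.6 and 17.6 CPM with cells. Hair transcripts report follicles in their growing phase and do not count follicles. For wounds of both sizes the study reports significantly more hair follicles and sebaceous glands with MSC beads than with acellular beads.

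Transcription factors of the hair matrix were below 0 in 10 of 12 members (median -0.76), and bulge and outer root sheath genes in 13 of 16 (median -0.31; -0.466 to -0.175 over all alternatives). Of these 16, 5 were lower (6.47% of all genes) and 1 was higher (4.53% of all genes) without overlap. The 1 that was higher is Postn, a matrix protein also made by fibroblasts, at 842, 623 and 543 CPM against 1023, 1137 and 924 CPM. Lhx2, a follicle stem cell factor, had 64.05, 23.6 and 61.3 CPM against 26.99, 19.3 and 23.7 CPM, again with acellular replicates 1 and 3 high. Krt15, a bulge keratin also made by basal epidermis, had 4227, 3095 and 2940 CPM against 2400, 2678 and 1599 CPM. Among 24 tested Wnt ligands and inhibitors 7 were lower without overlap (6.47% of all genes) and 1 was higher (4.53%), with a list median of -0.24 that was -0.093 without acellular replicate 3. Wnt10a, a follicle and epidermal ligand, had 49.3, 53.01 and 38.00 CPM against 26.6, 31.9 and 28.3 CPM (log2 fold change -0.69, SE 0.24; unadjusted p 0.0128), and Wnt7b 27.8, 22.4 and 21.98 CPM against 13.4, 17.4 and 17.2 CPM. Unlike the hair keratins, these ligands were high in all 3 acellular samples. Dermal papilla genes had a median of -0.30, hedgehog genes -0.17 and melanocyte genes -0.20. In each of these lists 1 member was lower without overlap, of 17, 12 and 10 members, near the 6.47% of all genes. Their medians turned to 0.13, 0.0998 and 0.00985 without acellular replicate 3, and that of the melanocyte list also to 0.0984 without HDB replicate 2.

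In the epidermis, cornified envelope genes were mixed. Of 19 tested 12 were above 0 and 7 below (median 0.34), 4 reached an unadjusted p under 0.05 as higher (2.10% of all genes) and 0 were higher without overlap (4.53% of all genes). The median was 0.774 without HDB replicate 1, 0.658 without acellular replicate 1, 0.107 without acellular replicate 3 and -0.0778 without HDB replicate 3. The members with the smallest p were high in 2 HDB samples. Rptn, a barrier protein of the granular layer, had 10.5, 3.31 and 2.28 CPM against 2.66, 92.2 and 149 CPM, and Flg, which bundles keratin and moistens the skin, 91.5, 66.9 and 65.2 CPM against 37.2, 365 and 448 CPM. Casp14, which processes filaggrin, had 33.5, 22.4 and 24.6 CPM against 14.6, 120.0 and 76.4 CPM. In all 3 genes HDB replicates 2 and 3 were the highest of the 6 samples and HDB replicate 1 was among the lowest. Stfa3, a protease inhibitor of the stefin family, showed the same split at 8.05, 12.8 and 8.94 CPM against 8.997, 218 and 119 CPM, and DESeq2 called it (adjusted p 0.0499; 2.46e-07 to 1 over all alternatives), although the groups overlapped. Stefin genes are near-identical copies, so reads could be split among them by the counting. Krt17, a keratin of wounded and follicular epidermis, had 1800, 1071 and 834 CPM against 415, 684 and 864 CPM, lower in 2 of the 3 HDB samples than in any acellular one. Basal and suprabasal genes were below 0 in 13 of 16 (median -0.28; -0.420 to -0.124 over all alternatives), 3 lower without overlap (6.47% of all genes).

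Cell-cycle genes differed by small amounts. Of 24 proliferation genes 22 had a log2 fold change below 0, by small amounts (median -0.14, lowest -0.51), and none reached an unadjusted p under 0.05. Without overlap 5 were lower (6.47% of all genes). Without acellular replicate 3, 16 of the 24 were above 0 (median 0.10), and without HDB replicate 1 it was 12 (median 0.018). Mki67, which encodes the Ki67 antigen the study stained, had 135, 161 and 280.0 CPM against 158, 196 and 214 CPM and a log2 fold change of -0.023 (SE 0.53). In 15 mm wounds Mki67 stood at 698, 121 and 137 CPM without and 101, 98.8 and 91.3 CPM with cells, so that acellular 15 mm replicate 1 was far above the other 5. The log2 fold change there was -1.71, and the interaction, which includes that library, had an unadjusted p of 0.0423 in edgeR. Both 10 mm groups were above normal skin, at 44.8, 45.2 and 37.96 CPM.

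The remaining calls of DESeq2 were Mid1, Pcdhga1, Gabrp and Krtap1-3. Mid1, a ubiquitin ligase of microtubules, had 25.00, 34.3 and 24.9 CPM against 146, 104 and 165 CPM, a 4.93-fold gap without overlap (adjusted p 0.00979 in DESeq2 and 1 in edgeR; 1.35e-19 to 1 over all alternatives). It stood at 49.3, 23.2 and 22.3 CPM and 35.2, 15.2 and 112 CPM in the 15 mm groups and at 23.8, 20.5 and 23.7 CPM in normal skin. Pcdhga1, a protocadherin whose exons overlap those of its gene cluster, had 2.34, 1.91 and 1.40 CPM against 6.16, 5.11 and 4.55 CPM, so its reads are uncertain. Of 21 gamma protocadherins tested 13 were above 0. Gabrp, a GABA receptor subunit of epithelia, had estimated counts of 421, 20 and 27 against 3, 7 and 1, and DESeq2 did not call it without acellular replicate 1. Krtap1-3, a hair keratin-associated protein, had 101, 0 and 0 against 0, 0 and 0, so its call rested on acellular replicate 1. Of the 8 DESeq2 fits, Gabrp was called in 4, Krtap1-3 in 4, Mid1 in 3, Ifit2 in 3, Pcdhga1 in 2 and Stfa3 in 2. Among other genes with small p and no overlap, the glutamate transporter Slc1a2 (0.114, 0.225 and 0.175 CPM against 0.592, 1.02 and 1.55 CPM) and the interleukin 23 receptor Il23r (0.0571, 0.0562 and 0.117 CPM against 0.296, 0.753 and 0.833 CPM) were higher at very low levels, and Rfx2, a ciliary transcription factor, was lower (33.7, 15.8 and 15.7 CPM against 10.4, 9.85 and 8.83 CPM).

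Other lists showed small or mixed differences. Basement membrane genes were above 0 in 10 of 16 (median 0.48), contractile and pericyte genes in 10 of 13 (median 0.24; 0.109 to 0.405 over all alternatives), angiogenic and other growth factors in 18 of 30 (median 0.19; 0.0872 to 0.311) and sebaceous gland genes in 14 of 18 (median 0.13). Wound keratinocyte genes were above 0 in 9 of 13 (median 0.49), and without HDB replicate 2 in 5 of 13 (median -0.37). Chemokines and cytokines were above 0 in 21 of 30 (median 0.31), and their median ran from 0.0051 without HDB replicate 3 to 0.863 without acellular replicate 2. Il1b, high in HDB replicate 2, belongs to the latter list. Schwann cell and nerve genes were above 0 in 10 of 11 (median 0.16) and hypoxia and glycolysis genes in 8 of 19 (median -0.0289). The 3 B cell genes tested were above 0 and the 4 erythrocyte genes below 0, with medians of 0.60 and -0.12. Over all alternatives the median ran from -0.153 to 0.488 for Schwann cell and nerve, from -0.113 to 0.173 for hypoxia, from -0.184 to 0.309 for sebaceous gland, from 0.122 to 3.33 for B cell and from -1.12 to 0.245 for erythrocyte genes. In none of these lists did an edgeR adjusted p pass 0.05.

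Across the 43 lists, the medians at 10 mm and 15 mm can be set side by side. Collagen processing (0.73 and 0.69), elastic fibre (0.65 and 0.72) and complement genes (0.72 and 0.92) were above 0 at both sizes, and both hair lists were far below 0 at both. Immediate-early genes had medians of -0.54 and 0.10. Proliferation genes had -0.14 and -1.21, and at 15 mm their summed level was 3060 CPM in acellular replicate 1 but 636.6 and 768.3 CPM in acellular replicates 2 and 3, against 624.3 to 689.7 CPM in the HDB samples. Clock genes had medians of -0.50 and 0.0320, and without acellular replicate 1 the 10 mm value was 0.066, close to that at 15 mm. Muscle had -0.0286 and 1.196, and its 10 mm median ran from -1.667 without HDB replicate 1 to 0.739 without acellular replicate 3. Apart from the per-gene interaction above, these differences between sizes were not tested.

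**Figure D4:**
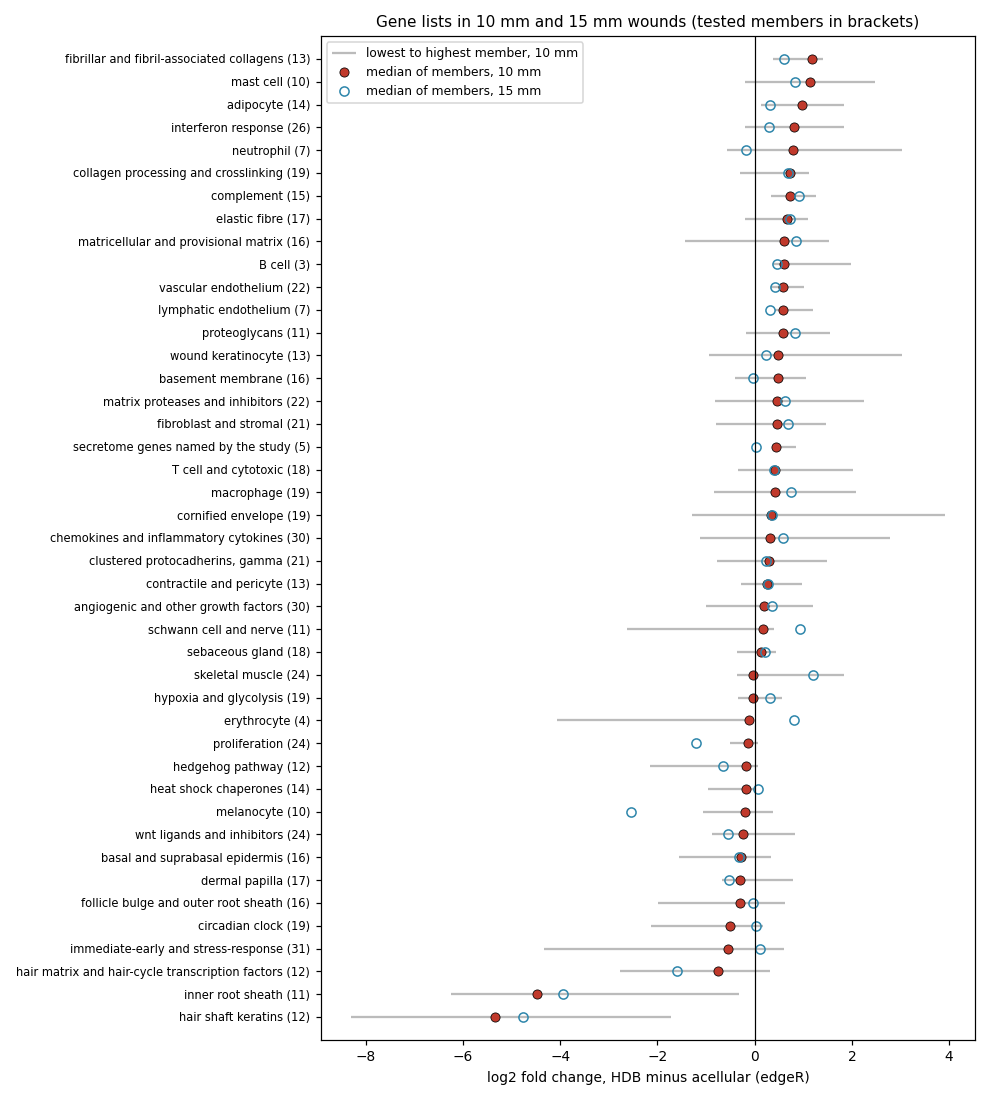
Log2 fold change of HDB minus acellular for 43 gene lists, with the median of the tested members at 10 mm as a filled red point, the range of the members at 10 mm as a grey bar and the median at 15 mm as an open blue point. Collagens have the highest 10 mm median (1.19) and hair shaft keratins the lowest (-5.35).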

How the data were processed

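Poly(A) RNA of mouse skin was sequenced in 15 samples of 5 groups, and the 6 samples of 10 mm wounds are described here. The authors deposited estimated counts per gene, not normalized. The submitters' processing notes list HISAT2 2.0.4, Bowtie2 2.2.5, RSEM 1.2.12 and the build GRCm38.p6, without their roles. Strandedness is not given in the sources used here, so overlapping antisense genes cannot be told apart.

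The estimated counts were rounded and filtered with filterByExpr (minimum count 10). Counts were normalized by TMM, and edgeR 4.0.16 (R 4.3.3) fitted 1 quasi-likelihood model of the 5 group means over 15 samples, with Benjamini-Hochberg adjustment over all genes tested and a threshold of 0.05. The code was tested on simulated data. DESeq2 1.42.0, named in the study's methods, was the main alternative. Other alternatives changed the filter, the normalization, the samples fitted, the replicate block and each replicate left out. DESeq2 on the 10 mm samples or without each replicate, and removal of each sample's trend with transcript length, were chosen after seeing the data. Between samples of 1 group no pair was a duplicate. Single values were compared by an exact two-sided permutation test of 20 arrangements, whose smallest p is 0.1.

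The genes named are those called by either tool, the 12 with the smallest p in each direction among genes without overlap, in each list the member with most reads and up to 5 with the smallest p, and genes the study names or stained. Tef, Arntl, Col1a1, Mmp2, C3, Irf7, Krt71 and Tchh fall outside this rule and were named after their values were seen. The gene lists were chosen with earlier results of these data known.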

Additional observations from a re-analysis of the deposited data

How the results depend on the processing

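With edgeR 0 genes passed the adjusted p in the main analysis and in all 13 edgeR alternatives, and 543 had an unadjusted p under 0.05. DESeq2 called 17 genes, and 97 with only the 10 mm samples. Leaving out each replicate gave between 0 and 44 called genes over both tools. The unadjusted count was 914 with DESeq2, 917 with only the 10 mm samples and 1077 with both, and 209 to 1273 when a replicate was left out. The interaction with wound size gave 852 genes with DESeq2 and 0 to 775 without a replicate. With the replicate block edgeR called 0 genes, 597 had an unadjusted p under 0.05 and the adjusted p of Per1 was 0.287. Deviations of samples with the same number correlated at -0.312, 0.0348 and -0.078, so the numbers were not taken as pairs.

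Among 106 genes followed over 21 alternatives, 34 of 2220 fold changes reversed, in 12 genes. Mki67 became 0.01126 with a mean count of at least 50 and 0.0516 with the replicate block in the 10 mm samples, and Acta1 became 0.01234 with the length trend removed. Without a replicate, the log2 fold change ranged from -0.22 to 0.37 for Mki67, -1.78 to 0.67 for Acta1, -2.64 to 0.16 for Per2, -2.01 to 0.25 for Dbp, -0.91 to 0.16 for Tef, -0.25 to 0.27 for Arntl, -0.04113 to 1.62 for Cd68, -0.28 to 1.04 for Ccl5, -0.66 to 0.96 for Il12b, -0.23 to 0.84 for Cxcl9, -0.03418 to 3.89 for Il1b and -0.87 to 3.71 for S100a8. The cause was not tested. Krtap1-3 gave no value without acellular replicate 1, since no count was left. Of 43 lists, 28 kept 1 sign of the median throughout and 15 did not. In 16 lists some alternative moved the median by more than 1 SD between replicates of the list's mean log2 CPM, which is wide for many lists. With 3 samples a group, small differences cannot be told from the spread, and a missing call does not show equal levels.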
